A study of Mus musculus with 12 samples.

Results

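The Kv4 channel complex was described in mouse embryonic cortex through 8 genes: Kcnd2 and Kcnd3, which encode channel pores, Kcnip1, Kcnip2, Kcnip3 and Kcnip4, which encode the calcium-binding KChIP subunits, and Dpp6 and Dpp10, which encode membrane partners. They were found by symbol among 51912 listed genes, and all 8 were among the 10678 genes that passed a filter on low counts. The set was put together because Kcnip3 fell in the mutants, so the mutant-control differences of these genes are given as a description, without p-values. RNA depleted of ribosomal RNA was sequenced from dissected cerebral cortex at embryonic day 15.5 by ClickSeq, a randomly primed method that joins adapters by click chemistry, with molecular identifiers and 1 library per sample. The 6 mutant libraries came from Emx1-Cre Arid1a conditional mutants (litter 1, 2 females; litter 2, 3 females and 1 male). The 6 control libraries came from litter 1 (1 female and 3 males) and litter 2 (1 female and 1 male), and the labels call them only control, without their alleles. Arid1a is a subunit of the BAF chromatin remodelling complex. Emx1-Cre acts in cortical progenitors and the cells they give rise to, so interneurons, vessels and microglia of mutant cortex keep the gene. All 12 libraries carry the same batch label.

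Kv4 channels carry a fast, transient potassium current that opens at voltages below spike threshold and limits how far signals spread in dendrites. KChIPs bind the cytoplasmic start of the channel and raise its surface level, and DPP6 and DPP10, relatives of the peptidase DPP4 that have no enzyme activity, speed its gating. KChIP3 is also known as calsenilin and as DREAM, a calcium-regulated repressor of transcription.

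Depth ran from 643197 to 3525121 counts on genes in mutants and from 1476478 to 2815042 in controls. Mutants 1, 2, 4 and 6 were shallower than every control, so depth and genotype overlap in part. The counts take in introns on the gene's own strand: of 89 protein-coding genes lying in an intron of a gene on the same strand, 98.9% were at 0 in every library, against 31.1% of 209 in an intron on the opposite strand and 25.5% of 17280 that overlapped no other protein-coding gene. A member's value is therefore a mix of spliced and unspliced RNA, and all 41 annotated genes that overlap a member on its own strand were at 0. Every gene of the cell type marker lists was detected except Sox2 and Neurod1, at 0 in all 12 libraries, which lie inside Sox2ot and Cerkl on the same strand. Arid1a itself had 396 to 525 CPM in mutants and 464 to 575 CPM in controls, a log2 fold change of -0.30 (SE 0.0958), where CPM are counts per 1000000 after TMM scaling. Arid1a did not pass in the edgeR test (adjusted p = 0.277), and 3 of the 6 mutants lay below all controls. Values written with ± are the mean and SD of 6 libraries per group. A gene total does not show the loss of a floxed exon.

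Among the 8 genes, Kcnip3 was lower in all 6 mutants than in any control, at 33.95 ± 1.45 CPM, against 61.6 ± 9.22 CPM in controls. The pore genes Kcnd2 and Kcnd3, the other KChIP genes and the DPP genes had mutant ranges that overlapped the control ranges. Kcnip3 was 1 of 8 members among the genes called by the edgeR quasi-likelihood test at a Benjamini-Hochberg adjusted p under 0.05, where 0.215% of all tested genes were called, 0.159% lower and 0.0562% higher. Because Kcnip3 was picked on that contrast, nothing is read from the count. Kcnip3 left the called genes without mutant 1, mutant 2, mutant 4 or control 1, with log2 fold changes between -0.88 and -0.73. Of the 7 other members, 6 had a positive log2 fold change, and their values ran from -0.20 to 0.44, beside a median over all genes tested of -0.000885.

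**Figure D1:**
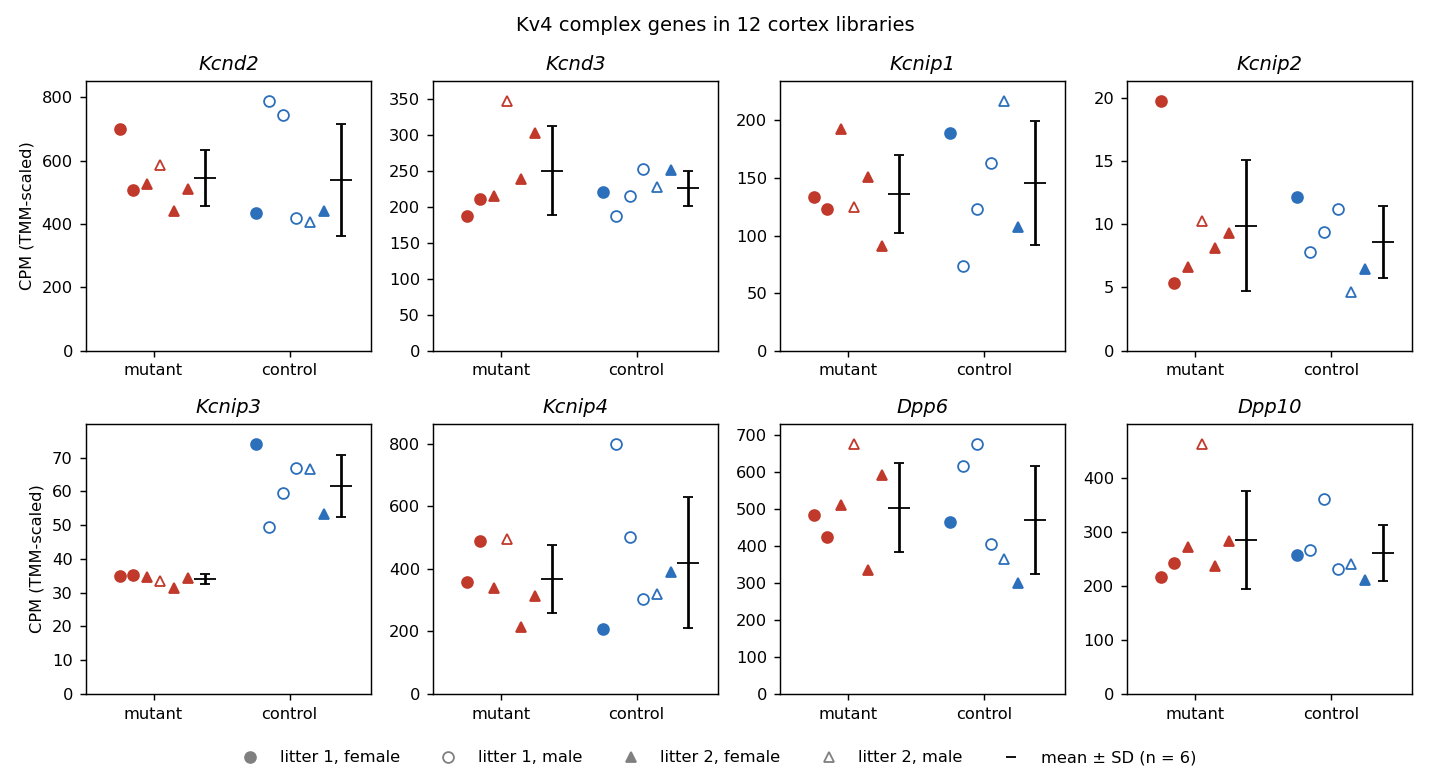
CPM of each gene in every library, mutants left and controls right, with litter as the marker shape and sex as the fill; black bars give mean ± SD over 6 libraries. Kcnip3 is the gene whose mutant libraries (31.3 to 35.1 CPM) all sit below its control libraries (49.5 to 73.98 CPM).

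Kcnip3 (ENSMUSG00000079056.12, mm10 chromosome 2, 127456498 to 127522094, minus strand) encodes KChIP3. In litter 1 the mutants had 34.9 and 35.1 CPM of Kcnip3, against 73.98, 49.5, 59.5 and 66.8 CPM in the controls of that litter. In litter 2 the mutants had 34.6, 33.4, 31.3 and 34.4 CPM, against 66.5 and 53.4 CPM in the controls. Because all 6 mutants lay below all 6 controls, the same order must hold within each litter and each sex, and it adds no further evidence. The 1 male mutant had 33.4 CPM, against 49.5 to 66.8 CPM in the male controls. The mutant mean was 44.9% under the control mean, with a fitted log2 fold change of -0.87 (SE 0.147) that holds litter and sex constant. CPM ranges that do not overlap, with the mutants lower, occurred in 0.927% of all genes tested, with the mutants higher in 0.337%, and in either direction in 1.26%.

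Counting error on Kcnip3 was larger than the spread among the mutants. The mutant counts of Kcnip3 were 23 to 125 per library, so counting alone gives a mean coefficient of variation of 15.8%, whereas the 6 mutant CPM varied by 4.28%. The shallowest mutant, with 23 counts, had an exact Poisson 95% interval of 22.2 to 52.4 CPM. Controls held 70 to 179 counts of Kcnip3 and varied by 14.96%, against 8.92% from counting. Intervals here cover counting error only. In bulk tissue, fewer cells of a type and less RNA per cell cannot be told apart.

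Kcnip3 has 3 RefSeq starts (GRCm38.p6), and the gene total sums RNA from all of them. Their promoter windows, 250 bases before to 50 after each start, are shown because Kcnip3 is the gene on which the set turns. Capitals mark TGACTCA, a match to the AP-1 motif TGANTCA that Fos and Jun proteins bind, found in the first window 122 bases upstream of the start.
Kcnip3 start 1, chr2:127522045-127522344, minus strand: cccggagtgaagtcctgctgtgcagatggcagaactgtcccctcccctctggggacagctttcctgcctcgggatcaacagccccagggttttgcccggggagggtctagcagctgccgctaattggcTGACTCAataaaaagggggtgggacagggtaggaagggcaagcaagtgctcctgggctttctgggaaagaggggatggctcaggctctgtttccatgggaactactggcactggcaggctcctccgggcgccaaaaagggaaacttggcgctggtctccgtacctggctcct
Kcnip3 start 2, chr2:127521343-127521642, minus strand: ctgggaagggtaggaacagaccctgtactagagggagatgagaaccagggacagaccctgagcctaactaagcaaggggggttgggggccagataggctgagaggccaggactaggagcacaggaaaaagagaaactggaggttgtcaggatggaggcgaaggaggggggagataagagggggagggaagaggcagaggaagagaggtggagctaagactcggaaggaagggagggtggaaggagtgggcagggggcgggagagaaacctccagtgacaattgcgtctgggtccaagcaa
Kcnip3 start 3, chr2:127482450-127482749, minus strand: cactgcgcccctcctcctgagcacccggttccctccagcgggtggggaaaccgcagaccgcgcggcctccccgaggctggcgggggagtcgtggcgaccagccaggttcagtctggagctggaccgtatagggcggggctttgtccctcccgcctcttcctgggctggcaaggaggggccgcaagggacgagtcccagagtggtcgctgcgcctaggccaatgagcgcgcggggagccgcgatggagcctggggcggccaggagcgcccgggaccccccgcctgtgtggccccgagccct

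The windows of Kcnip3 differ in base composition, with 60.3% G and C and 8 CG pairs in the first, 58.0% and 4 in the second, and 73.3% and 28 in the third. The AP-1 motif reads the same on both strands and occurred in 7.81% of 32851 such windows genome-wide. It occurred in 2 of the 15 windows of the 8 members, the first of Kcnip3 and 1 of Kcnip4. The cyclic AMP response element TGACGTCA was found in 0 of the 15 windows and in 1.79% of all windows. GTCA, the core letters of the element that DREAM binds, searched on both strands, occurred in 12 of the 15 windows and in 85.2% of all windows, and in the first Kcnip3 window it overlaps the AP-1 match. The motifs were chosen after the sequences were seen, and a match is no evidence of binding.

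Kcnip4, which encodes KChIP4 (ENSMUSG00000029088.16, chromosome 5, 48389502 to 49524907), had the widest range of the KChIP genes in CPM, though not in proportion to its level. Its mutants ran from 214 CPM through a median of 349 to 496 CPM, and its controls from 207 through 354 to 798 CPM. Control 2 held the highest and control 1 the lowest level of Kcnip4, so both extremes were controls. Kcnip4 averaged 368 ± 108 CPM in mutants, against 420 ± 210 CPM in controls. Its fitted log2 fold change was 0.20 (SE 0.351) with litter and sex held constant and -0.19 without those terms, and it was 0.83 without control 6 and -0.01 without control 1. Kcnip4 spans 1135 kb, and 24 annotated genes on its strand lie within it, covering 4.64% of its length.

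Kcnip1, which encodes KChIP1 (chromosome 11, 33629339 to 33993152), had 91.1 to 193 CPM in mutants, with a median of 129, and 73.5 to 217 CPM in controls, with a median of 143. No mutant of Kcnip1 lay outside the control range. The log2 fold change of Kcnip1 was -0.20 (SE 0.359), and it was -0.66 without control 6 and 0.08 without control 1. Kcnip2, which encodes KChIP2, the partner of Kv4 channels in heart muscle (chromosome 19, 45791839 to 45816061), was the lowest member. It had 5.32 to 19.8 CPM in mutants, with a median of 8.71, and 4.63 to 12.1 CPM in controls, with a median of 8.59, from 5 to 30 counts per library. At that depth counting alone gives Kcnip2 a coefficient of variation of 30.5% in mutants and 24.8% in controls, and its log2 fold change was 0.29 (SE 0.341), or -0.11 without mutants 1 and 4, the shallowest libraries.

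Kcnd2 encodes the Kv4 pore that is prominent in dendrites of pyramidal neurons (ENSMUSG00000060882.5, chromosome 6, 21215503 to 21729805). Its mutants ran from 442 through a median of 517 to 700 CPM, and its controls from 407 through 439 to 788 CPM. Controls 2 and 3 and mutant 1 held the 3 highest levels, all in litter 1. Kcnd2 averaged 545 ± 88.9 CPM in mutants, against 540 ± 176 CPM in controls, so the group means were nearly equal. Its fitted log2 fold change was 0.29 (SE 0.187) with litter and sex held constant, 0.15 without the sex term and 0.01 without both terms, and it was 0.46 without control 6.

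Kcnd3, a second Kv4 pore gene (chromosome 3, 105452330 to 105674002), had 187 to 347 CPM in mutants, with a median of 226, and 187 to 252 CPM in controls, with a median of 224. Mutants 4 and 6 lay above all controls and mutant 1 just below them, and the log2 fold change was 0.11 (SE 0.132), or -0.06 without mutant 4. Kcnd1, the remaining Kv4 gene, was too low to test, at 0.929 to 7.71 CPM in mutants, against 2.12 to 5.02 CPM in controls.

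Dpp6 (chromosome 5, 26817203 to 27727505) had 336 to 676 CPM in mutants, with a median of 497, and 301 to 676 CPM in controls, with a median of 436. Its group means turned over between the litters: in litter 1 the mutants averaged 454 CPM against 541 CPM in controls, and in litter 2 they averaged 529 CPM against 333 CPM in controls. Sex was unevenly split in litter 1, where both mutants were female and most controls male. Its only female control, control 1, had 466 CPM, between mutants 1 and 2 at 483 and 425 CPM. The litter by genotype term for Dpp6, the mutant-control difference of litter 2 minus that of litter 1, was 0.72 (SE 0.346, edgeR adjusted p = 0.711) and did not pass. Dpp10 (chromosome 1, 123321471 to 124045559) had 216 to 462 CPM in mutants, with a median of 256, and 211 to 360 CPM in controls, with a median of 249. Mutant 4, the 1 male mutant, held the highest Dpp10 value and control 3 the next, and the same 2 libraries were the highest for Dpp6. The fitted log2 fold changes were 0.44 (SE 0.225) for Dpp6 and 0.32 (SE 0.165) for Dpp10. Without the litter and sex terms they were 0.09 for Dpp6 and 0.12 for Dpp10, and in litter 2 alone 0.76 for Dpp6 and 0.57 for Dpp10. Dpp10 stood at 0.12 without mutant 4 and at 0.09 in females alone.

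Sex and litter are contrasts the choice of genes did not use. No member passed for either in the edgeR test. For sex, where 0.00937% of genes tested were called, 2 of 8 members had an unadjusted p under 0.05, as did 742 of all 10678 genes tested. The 2 members were Dpp10, at 245 CPM in females and 312 CPM in males (log2 difference female minus male -0.48, SE 0.153, adjusted p = 0.661, or -0.23 without mutant 4), and Dpp6 (-0.46, SE 0.208, adjusted p = 0.711). For litter, where 1.31% of genes were called, 0.618% lower in litter 2 and 0.693% higher, 2 of 8 members had an unadjusted p under 0.05, as did 1641 of all 10678 genes tested. The 2 members here were Kcnip2, at 7.57 CPM in litter 2 and 10.9 CPM in litter 1 (log2 difference litter 2 minus litter 1 -0.72, SE 0.301, adjusted p = 0.257), and Kcnd3, at 264 CPM in litter 2 and 212 CPM in litter 1 (0.28, SE 0.12, adjusted p = 0.269). DESeq2 and limma-voom also called 0 members for sex and for litter, whereas without the filter on low counts edgeR called Dpp10 for sex (-0.47, adjusted p = 0.00469), where 0.313% of 24283 genes were called, and Kcnd2 for litter (-0.32, adjusted p = 0.0454), where 2.44% were called. Kcnip3 had a sex difference of 0.06 (SE 0.139, adjusted p = 0.958), a litter difference of -0.08 (SE 0.129, adjusted p = 0.841) and a litter by genotype term of 0.03 (SE 0.279, adjusted p = 0.998). For the litter by genotype term 0% of genes were called, and 0 of 8 members had an unadjusted p under 0.05, against 776 of all 10678 genes tested. DESeq2 and limma-voom called 0 members for that term as well, and edgeR without the filter called Dpp6 (0.79, adjusted p = 0.0286), where 0.309% of all genes were called.

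**Figure D2:**
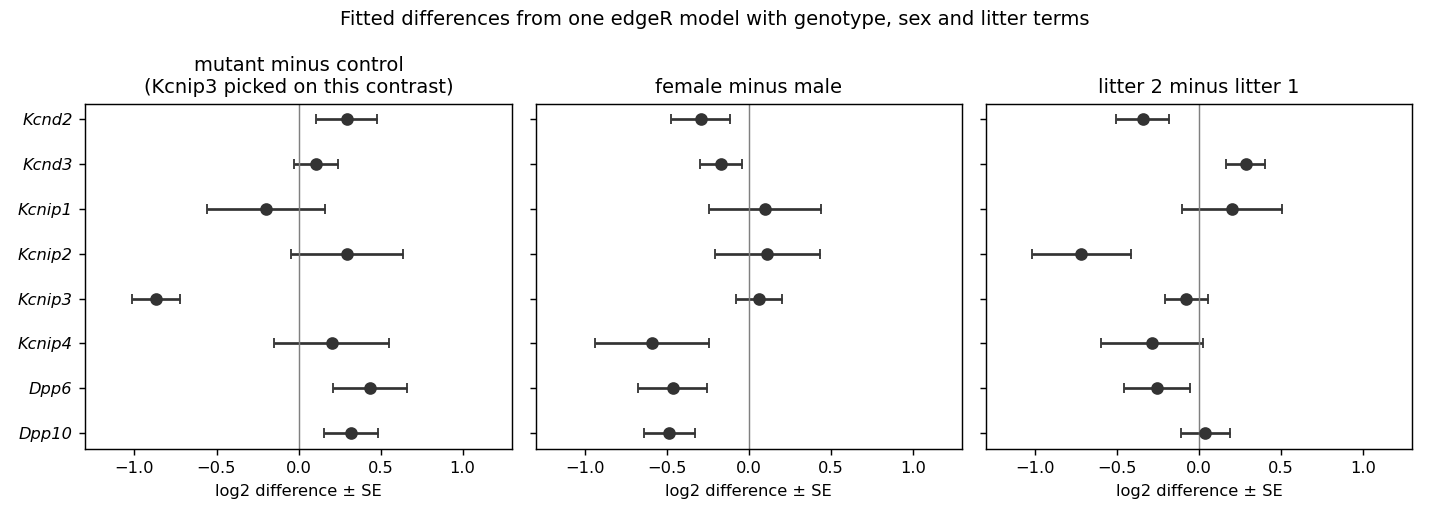
Fitted log2 differences with standard errors for each gene: mutant minus control, female minus male, and litter 2 minus litter 1, all from the same fit. Kcnip3 stands at -0.87 on the genotype axis and at 0.06 and -0.08 on the sex and litter axes.

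Between genes, levels depend on the length they are divided by. Per kb of merged exons, Kcnip4 and Kcnd2 led in controls, at 116 ± 57.8 and 105 ± 34.2 CPM per kb, followed by Dpp6 (38.2), Kcnd3 (23.5), Kcnip1 (23.5), Kcnip3 (17.4), Dpp10 (16.5) and Kcnip2 (2.47). Per kb of gene span, the order in controls was Kcnd2 (1.05), Kcnd3 (1.02), Kcnip3 (0.939), Dpp6 (0.518), Kcnip1 (0.4), Kcnip4 (0.370), Dpp10 (0.360) and Kcnip2 (0.355). The counts take in introns, but over 10146 protein-coding genes with at least 120 counts in total they followed both lengths. With both in 1 model, the slope of log10 count was 0.369 on log10 span and 0.488 on log10 exon length, so neither scale is exact. Kcnip4 thus had rank 1 per kb of exons and rank 6 per kb of span, while Kcnip3 had rank 6 per kb of exons and rank 3 per kb of span. Control ranges of neighbours failed to overlap at Kcnd2 over Dpp6 and Dpp10 over Kcnip2 per kb of exons, and at Kcnip3 over Dpp6 per kb of span. Each of those steps held in 6 of 6 controls (exact sign-flip permutation p = 0.0312, two-sided, the smallest that 6 libraries allow). Adjusted over the 14 neighbouring pairs it was 0.146. With that smallest p, a few pairs cannot pass after adjustment, and the pairs were set by the order of the same means. Nothing is therefore read from the adjusted value. Per kb of span, Kcnip3 in mutants stood at 0.518 ± 0.0221 CPM per kb, against 0.939 ± 0.140 CPM per kb in controls. Its share of the summed span-scaled level of the 4 KChIP genes was 32.3% ± 3.79 in mutants (26.2 to 36.6%) and 45.4% ± 4.03 in controls (38.1 to 48.7%), which did not overlap. The lower level for which Kcnip3 was chosen enters this share. Per kb of exons the share was 7.31% ± 1.45 in mutants (5.57 to 9.32%) and 12.0% ± 4.46 in controls (5.62 to 18.6%), which overlapped, with Kcnip4 holding 73.6% in mutants and 69.7% in controls.

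**Figure D3:**
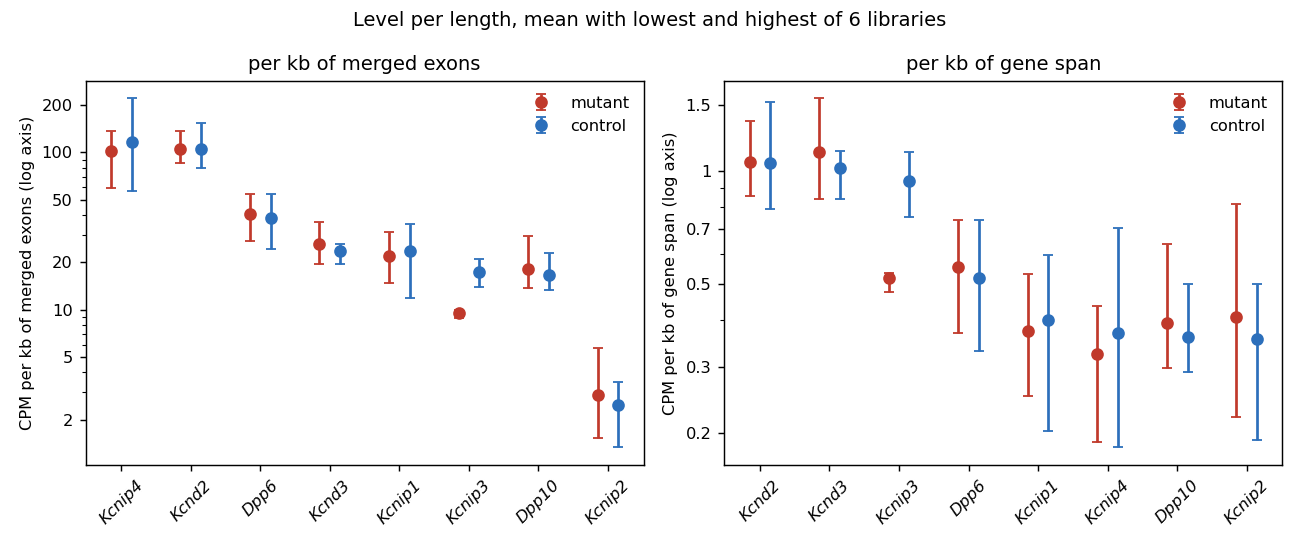
Level of each gene per kb of merged exons (left) and per kb of gene span (right) on log axes, with the mean and the lowest and highest of 6 libraries, mutants left of controls. In controls Kcnip4 leads the exon-scaled order and has rank 6 when scaled by span, and the Kcnip3 mutants sit below the Kcnip3 controls in both.

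The DPP genes moved together from library to library. Over the 12 libraries Dpp6 and Dpp10 correlated in log2 CPM with Pearson r = 0.777 (permutation p = 0.00098, adjusted p = 0.0274 over 28 member pairs) and Spearman rho = 0.846 (permutation p = 0.00102, adjusted p = 0.0286). Without the 2 libraries farthest from the median of Dpp6, r was 0.697. Within mutants it was 0.743, within controls 0.884, within litter 1 0.800 and within litter 2 0.864. Kcnd2 correlated with Dpp6 at r = 0.744 (permutation p = 0.00688, adjusted p = 0.0642) and rho = 0.790 (permutation p = 0.0034, adjusted p = 0.0462), with r at 0.619 without the 2 farthest libraries. Within mutants this r was 0.491, within controls 0.865, within litter 1 0.839 and within litter 2 0.894. Kcnd2 and Kcnip4 had r = 0.737 (permutation p = 0.00556, adjusted p = 0.0642) and rho = 0.769 (permutation p = 0.00495, adjusted p = 0.0462), with r at 0.487 without the 2 farthest, 0.492 in mutants and 0.852 in controls. Within litter 1 the r of Kcnd2 and Kcnip4 was 0.760 and within litter 2 it was 0.576. Both Kcnd2 pairs passed by rho and not by r, and the r of Kcnd2 with Kcnip4 leaned on the 2 farthest libraries. The libraries share dissection and scaling, and none of the other 25 pairs passed by either measure.

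Markers of cell types moved with KChIP genes among controls, a pattern picked out after the values were seen. Subplate neuron markers summed to 488 to 670 CPM in mutants and 658 to 1350 CPM in controls over 10 genes, none of them at 0, of which Zfpm2 made up 50% in mutants and 65.0% in controls. The other 9 genes summed to 254 to 390 CPM in mutants, with a mean of 294, and 233 to 406 CPM in controls, with a mean of 338, so most of the gap lay in Zfpm2. Of 7 subplate markers tested, 0 were called by edgeR, 4 had an unadjusted p under 0.05 (937 of all 10678 genes tested) and 5 had a negative log2 fold change. Among controls the order of Kcnip3 was that of the subplate sum except for controls 4 and 5, from control 1 (73.98 CPM of Kcnip3, 1347 CPM of markers) to control 2 (49.5 and 658 CPM). Zfpm2, most of that sum, had r = 0.98 with Kcnip3 within controls, and the order by the other 9 genes was not examined. Kcnip1 also kept the order of the subplate sum in controls, except for controls 1 and 5. Its r with Kcnip3 was 0.93 within controls and -0.175 within mutants. Among mutants Kcnip3 did not follow the sum. Mutants 4 and 5, at 670 and 657 CPM of subplate markers, had 33.4 and 31.3 CPM of Kcnip3, below control 2 with its nearly equal sum. The part of subplate cells in the Kcnip3 difference was not tested. The layer 6 list summed to 4320 to 6060 CPM in mutants and 5230 to 7310 CPM in controls over 8 genes, none at 0. Its sum lay below every control in all mutants but mutant 5. Of its 8 genes, all tested, edgeR called 1 lower, where 0.159% of all genes tested were called lower. In log2 fold change 7 of the 8 were negative, with a median of -0.68, and 5 had an unadjusted p under 0.05. Upper-layer markers summed to 3840 to 5240 CPM in mutants and 4710 to 7290 CPM in controls, with 6 of 7 tested below 0 in log2 fold change and 0 called. Cajal-Retzius markers summed to 298 to 571 CPM in mutants and 391 to 855 CPM in controls, with 3 of 4 tested below 0 and 0 called. Neither list had a gene at 0. In controls the Cajal-Retzius sum also kept the order of Kcnip3, except for controls 4 and 5 and for controls 2 and 6. The part of the layer 6, upper-layer and Cajal-Retzius lists in the Kcnip3 difference was not tested.

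Kcnip4 moved with striatal markers in controls, and nearly as closely with interneuron markers. The 14 striatum markers, none at 0, summed to 2050 to 4300 CPM in mutants and 1710 to 4090 CPM in controls. In the fit with litter and sex terms, all 8 tested had a positive log2 fold change, with a median of 1.11, and edgeR called 0 of them, with 0 at an unadjusted p under 0.05. The part of striatal cells in the Kcnip4 levels was not tested. The order of the 6 controls by Kcnip4 was the same as by the striatal sum, from control 1 (207 CPM of Kcnip4, 1712 CPM of markers) to control 2 (798 and 4090 CPM). Kcnip3 ran in the reverse of that order in controls, except for controls 3 and 6. The r of Kcnip3 with Kcnip4 was -0.903 within controls and 0.654 within mutants. Whether the subplate and striatal patterns are the same pattern was not tested. In mutants the orders of Kcnip4 and the striatal sum differed: mutant 6 had the highest striatal sum, 4297 CPM, and 312 CPM of Kcnip4. The 12 interneuron markers, none at 0, summed to 328 to 795 CPM in mutants and 251 to 746 CPM in controls. All 11 tested had a positive fitted value, with a median of 0.48, and edgeR called 0, with 1 at an unadjusted p under 0.05. In controls the interneuron sum kept the order of Kcnip4, except for controls 1 and 4 (268 and 251 CPM of interneuron markers). The part of interneurons in the Kcnip4 levels was not tested. With a striatum marker score added to the fit, the log2 fold change of Kcnip4 was 0.12, that of Kcnip3 was -0.77 (SE 0.142) and that of Kcnd2 was 0.18, and Kcnip1 turned to 0.06.

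**Figure D4:**
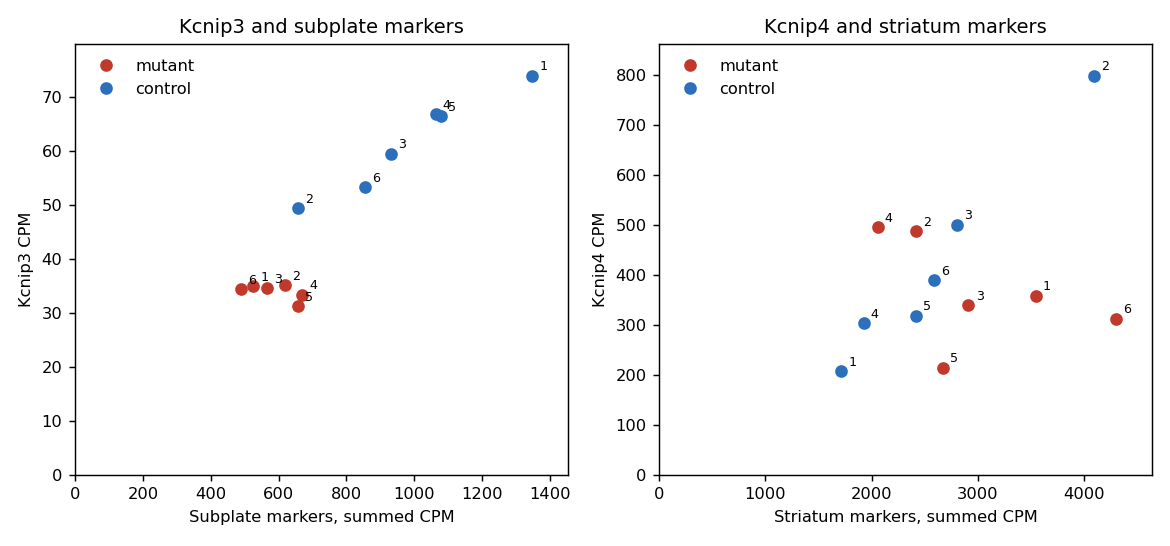
Kcnip3 CPM against summed subplate marker CPM (left) and Kcnip4 CPM against summed striatum marker CPM (right), 1 point per library, numbered by replicate. Controls line up in both plots, from control 1 to control 2, and the mutants of Kcnip3 lie flat between 31.3 and 35.1 CPM.

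The 5 protein-coding genes whose log2 CPM followed Kcnip3 most closely over the 12 libraries, of 8885 with a mean of at least 10 CPM, were Fam196a, Zfpm2, Plppr1, Chrna7 and Csmd2. Their Pearson r with Kcnip3 ran from 0.931 to 0.952, and this includes the mutant-control difference for which Kcnip3 was chosen. Zfpm2, a cofactor of GATA factors and one of the subplate markers, had 294 ± 44.1 CPM in mutants, against 651 ± 207 CPM in controls, with r = -0.449 within mutants and 0.980 within controls. Chrna7, which encodes a nicotinic acetylcholine receptor subunit, had 57.9 ± 11.6 CPM in mutants, against 138 ± 44.6 CPM in controls, with r = 0.201 within mutants and 0.808 within controls. Fam196a had 9.48 ± 1.17 CPM in mutants, against 26.5 ± 7.18 CPM in controls. Plppr1, a phospholipid phosphatase-related membrane protein, had 320 ± 46.1 CPM in mutants, against 559 ± 113 CPM in controls, and Csmd2 had 148 ± 32.1 CPM in mutants, against 346 ± 78.7 CPM in controls. Of these 5 genes edgeR called only Fam196a for genotype, where 0.215% of all tested genes were called. The 5 were picked for likeness to Kcnip3, so nothing is read from that count. Within mutants the r of the 5 genes ran from -0.449 to 0.201, where Kcnip3 itself hardly varied.

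The wider pathway showed no gene past the threshold. Of 89 listed genes outside the 8 members, 54 were tested for genotype and 0 were called by edgeR, DESeq2 or limma-voom, against a background of 0.215%. By edgeR 6 of the 54 had an unadjusted p under 0.05, as did 937 of all 10678 genes tested. The median log2 fold change of the 54 was 0.06, beside -0.000885 over all genes tested. Of the other voltage-gated potassium channel subunits, 22 of 33 were tested, 11 had a negative value and the median was -0.03. Kcnh7, an ether-a-go-go related channel, had 570 ± 56.6 CPM in mutants, against 732 ± 70.1 CPM in controls, a log2 difference of -0.34 (SE 0.112, adjusted p = 0.286), and without the filter on low counts Kcnh7 was the 1 gene called of 86 tested, where 1.07% of all genes were called. Kcnq3, a subunit of the M current, had 1893 ± 476 CPM in mutants, against 1390 ± 449 CPM in controls (0.20, SE 0.13, adjusted p = 0.735).

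Relatives of the KChIPs and DPPs also did not pass. Of 9 other neuronal calcium sensors, 6 were tested, with a median log2 fold change of 0.07. Ncald, or neurocalcin, had 128 ± 21.2 CPM in mutants, against 139 ± 7.57 CPM in controls, a log2 fold change of -0.07 (SE 0.121), and Ncs1 had 99.2 ± 11.3 CPM in mutants, against 104 ± 18.8 CPM in controls (0.09, SE 0.13, of the other sign than the means with litter and sex held constant). Of 7 other DPP4 family peptidases 4 were tested, all 4 with small positive values (0.06 to 0.21), among them Dpp8, which had 117 ± 8.07 CPM in mutants and 113 ± 9.43 CPM in controls. Prepl had 65.5 ± 7.18 CPM in mutants, against 68.98 ± 6.18 CPM in controls, and a fitted value of 0.07 (SE 0.114), likewise of the other sign. The accessory subunits gave 6 tested of 14, with a median of -0.01, led in level by Kcnmb2 (0.25, SE 0.206) and Kcnmb4 (0.02, SE 0.143), subunits of calcium-activated potassium channels.

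Genes tied to KChIP3 as DREAM, and other binders of Kv4 channels, gave no call either. Of 11 genes bound or repressed by DREAM, 4 were tested and 0 were called, with log2 fold changes from -0.87 to 1.01. Fosl2, an AP-1 subunit named after its value was seen, had 11.2 ± 4.04 CPM in mutants, against 23.3 ± 12.7 CPM in controls (-0.87, SE 0.459, adjusted p = 0.648). Slc8a3, a sodium-calcium exchanger, had 103 ± 35.2 CPM in mutants, against 110 ± 22.3 CPM in controls, a log2 fold change of -0.14 (SE 0.210), and Crem, a regulator of cyclic AMP responses, had 31.7 ± 6.90 CPM in mutants, against 30.95 ± 4.52 CPM in controls (0.17, SE 0.175). Of 7 other proteins that bind Kv4 channels, all 7 were tested and 0 called. For Flna, an actin cross-linker, the log2 fold change was -0.03 (SE 0.114), and for the scaffold protein gene Dlg1 it was -0.03 (SE 0.097).

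**Figure D5:**
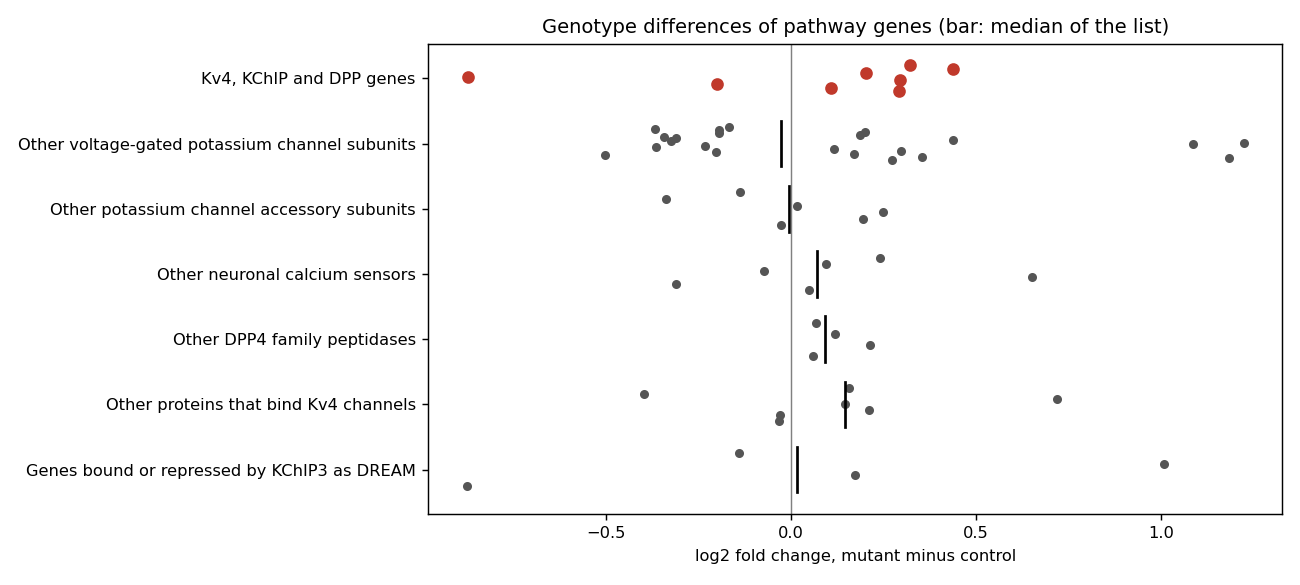
Log2 fold change, mutant minus control, of the 8 Kv4, KChIP and DPP genes (top row) and of every tested gene of the pathway lists shown, with a bar at each list's median. List medians lie between -0.03 and 0.15, and Kcnip3 is the leftmost point of the top row at -0.87.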

How the data were processed

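RNA-seq libraries of 12 cortices were analysed. Per the submitters' processing notes, the tools were STAR 2.5.2a, HTSeq 0.6.1p1, UMI-tools 0.5.3, bcl2fastq 2.17, edgeR 3.20.9 and cutadapt 1.13, and the build was mm10, with settings and annotation release not given in the sources used here. Each deposited file holds raw counts per Ensembl gene, whole numbers with no normalization. Their 5 closing entries that name no gene took 20.7 to 31.6% of a file and were left out. Symbols and coordinates came from GENCODE M21 (all but 193 of 51912 identifiers matched), and promoters from RefSeq.

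Genes were kept by filterByExpr (minimum count 10), scaled by TMM and modelled on genotype, sex and litter with glmQLFit (robust = TRUE, 8 residual degrees of freedom) of edgeR 4.0.16 under R 4.3.3, after the fit was tested on simulated data. A call is an adjusted p under 0.05, Benjamini-Hochberg over all genes tested. The SE is the log2 fold change divided by the square root of F. Log2 CPM used a prior count of 2. DESeq2 1.42.0 and limma 3.58.1 (voom) were alternatives, beside other scalings, filters, covariates and subsets of libraries. Pairs of libraries differed beyond sampling noise (chi-square per degree of freedom 1.86 to 15.1). Nothing in the labels says whether a library is 1 embryo, so p-values measure the spread between these samples. Plots used matplotlib 3.10.9.

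The members and gene lists were chosen with earlier results of these data known. The named genes are the 8 members, Arid1a, the 2 highest genes of each list, except 1 list not reported here, and the 5 genes most like Kcnip3; genes named for an unadjusted p and the marker patterns were picked after their values were seen.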

Additional observations from a re-analysis of the deposited data

Results flagged for a closer look

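Each of the 8 genes was checked in mutants and in controls for a library that stands apart, by Dixon's criterion for 6 values at 95%, which chance meets in about 1 in 20 groups; 16 groups were checked. Mutant 1 had 19.8 CPM of Kcnip2, with the next mutant at 10.3 CPM; the value rests on 13 counts and its 95% Poisson interval is 10.5 to 33.8 CPM. Mutant 4 had 462 CPM of Dpp10, with the next mutant at 283 CPM, from 360 counts. Control 3 had 360 CPM of Dpp10, with the next control at 266 CPM, from 957 counts.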

How the results depend on the processing

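The log2 fold change of Kcnip3 was negative in all 27 alternatives, and in 26 it moved by less than the SD of log2 CPM among controls. The exception was a single thinning of all libraries to 643197 counts (-0.46); over 20 such thinnings, added after seeing the data, the median was -0.83 (-1.12 to -0.31). Without 1 library at a time it ran from -1.08 (without control 6) to -0.73 (without control 1). Kcnip3 left the called genes without mutant 1, mutant 2, mutant 4 or control 1, without mutants 1 and 4, in litter 2 alone and in the single thinning; the cause was not tested. The 7 other members were called in 0 of their 188 alternative values and kept their sign in 176.

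The number of genes called for genotype, 23, was 261 with no filter, 95 with DESeq2, 77 without the sex term, 141 without litter and sex terms, 35 with the striatum score, 64 in litter 2 alone, 44 in females, 0 without mutants 1 and 4 (700 at an unadjusted p under 0.05) and 8.5 as the median of the 20 thinnings; without 1 library it ran from 6 (without mutant 2) to 55 (without control 4). With no filter 1 member passed for sex (Dpp10, -0.47), 1 for litter (Kcnd2, -0.32) and 1 for litter by genotype (Dpp6, 0.79). No paired analysis was possible because replicate numbers were given in accession order; litter is in the model. Kcnip2, at 5 to 30 counts per library, is limited by depth.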

Other observations

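Some genes of the pathway lists, named after their values were seen, had an unadjusted p under 0.05 and did not pass by edgeR. Kcna2, a delayed-rectifier potassium channel of axons, had 12.9 ± 4.24 CPM in mutants, against 6.17 ± 1.23 CPM in controls, a log2 difference of 1.18 (SE 0.286, adjusted p = 0.100), and Kcng3, a silent modifier subunit, had 13.6 ± 4.61 CPM in mutants, against 6.36 ± 0.617 CPM in controls (1.09, SE 0.299, adjusted p = 0.184). Both were called without the sex term, where 77 of all genes tested were called against 23 in the main fit. Kcng3 was also called without litter and sex terms, where 141 genes were called. Hrk, a cell death gene and DREAM target, had 1.01 (SE 0.415, adjusted p = 0.460), and the scaffold gene Dlg4 had 0.21 (SE 0.0967, adjusted p = 0.544).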
